A study of Mus musculus with 10 samples.

Results

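The latrophilins Adgrl1, Adgrl2 and Adgrl3, their relative Adgrl4, and the FLRT genes Flrt1, Flrt2 and Flrt3 were followed on arrays of splenic cDC1s from 4 mouse genotypes. Their members on the array were all probe sets annotated to exactly 1 of these 7 genes. This gave 14 probe sets, 8 of them for Adgrl2 and 1 for each of the other 6 genes, out of 21789 probe sets that named a single gene (19938 genes). The group was chosen by the measured values across the genotypes of Adgrl2 and Adgrl3, which moved in opposite directions in the genotype labelled Zeb2 Id2 DKO. Values of those 2 genes are therefore given as a description with no test. The other 5 genes were added as relatives and ligands and were tested.

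cDC1s are the conventional dendritic cells that take up dead cells and present their antigens to CD8 T cells. The arrays were labelled Zeb2 Id2 DKO (n = 2), Nfil3 Zeb2 DKO (n = 2), Zeb2 KO (n = 3) and WT (n = 3). Per these names all 3 mutant genotypes lacked the zinc finger repressor Zeb2, and the double mutants also lacked either Id2, which blocks DNA binding by E proteins, or Nfil3, a basic leucine zipper repressor. The alleles, any Cre driver, the strain, the age of the mice and the gate of the sort are not named in the sources used here. The labels do not say whether replicates came from separate mice, so p-values measure the spread between these samples only.

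Latrophilins are adhesion G protein-coupled receptors: a long extracellular part binds ligands on neighbouring cells and is cut from the membrane-spanning part at a site within the receptor. Their best known ligands are the teneurins and the FLRT proteins, leucine-rich repeat membrane proteins that also bind UNC5 receptors. Most of what is known of them concerns neurons, where they organise synapses and guide migrating cells, and Adgrl4 is best known from blood vessel endothelium.

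Values are log2 of the intensities that the authors had normalized with RMA, which ran from 2.34 upwards on this scale with a median of 6.32. Correlations between arrays of a genotype were 0.986 to 0.997, and the lowest involved Zeb2 KO replicate 3, which stood apart from Zeb2 KO replicates 1 and 2. Id2 read 5.01 and 4.98 in Zeb2 Id2 DKO, against 9.89 to 10.50 on all other arrays. Nfil3 read 6.20 and 7.09 in Nfil3 Zeb2 DKO, against 9.98 to 10.77 on all other arrays. Zeb2 read 6.78 and 6.82 in Zeb2 Id2 DKO, 6.46 and 6.24 in Nfil3 Zeb2 DKO, 5.40 to 6.27 in Zeb2 KO and 5.93 to 6.30 in WT, so it did not follow the labels. The sources used here do not say whether its probe set lies in the deleted part, and its level checks nothing about the deletion. The mean of 11 cDC1 markers, Xcr1 and Clec9a among them, was 11.39 to 11.42 in Zeb2 Id2 DKO, 11.40 to 11.42 in Nfil3 Zeb2 DKO, 11.35 to 11.49 in Zeb2 KO and 11.42 to 11.46 in WT. Of these 11, Cadm1, an adhesion molecule of cDC1s, fell in Zeb2 Id2 DKO, with a mean of 10.37 there and 11.24 in WT (limma adjusted p = 0.0025), and none rose. Cadm1 was also lower in Zeb2 Id2 DKO than in Nfil3 Zeb2 DKO (log2 -0.73, limma adjusted p = 0.0163) and Zeb2 KO (log2 -0.66, limma adjusted p = 0.0211). Over all probe sets 0.486% fell and 0.817% rose in Zeb2 Id2 DKO against WT. Against Nfil3 Zeb2 DKO 0.702% of all were called in either direction, and against Zeb2 KO 0.464%.

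Adgrl2, a latrophilin gene on chromosome 3 (148815586 to 148989096, GRCm38.p6), had its highest group mean in Zeb2 Id2 DKO with every one of its 8 probe sets. The probe set with the highest mean, 10502776, read 8.91 and 8.84 in Zeb2 Id2 DKO, 6.14 and 6.09 in Nfil3 Zeb2 DKO, 6.81, 6.79 and 6.80 in Zeb2 KO and 6.62, 6.21 and 6.27 in WT. Both Zeb2 Id2 DKO arrays lay far above the rest, and no 2 genotypes overlapped. The means were 8.88 ± 0.05 in Zeb2 Id2 DKO, 6.12 ± 0.03 in Nfil3 Zeb2 DKO, 6.80 ± 0.01 in Zeb2 KO and 6.37 ± 0.22 in WT (SD), so that Zeb2 Id2 DKO was followed by Zeb2 KO, WT and Nfil3 Zeb2 DKO. In bulk RNA, a larger share of cells with the transcript and more RNA per cell cannot be told apart.

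With this probe set, Adgrl2 in Zeb2 Id2 DKO exceeded WT 5.70-fold (log2 difference 2.51), Zeb2 KO 4.22-fold (2.08) and Nfil3 Zeb2 DKO 6.79-fold (2.76). Among the other genotypes the differences were smaller. They were a log2 difference of 0.44 between Zeb2 KO and WT, -0.25 between Nfil3 Zeb2 DKO and WT and -0.69 between Nfil3 Zeb2 DKO and Zeb2 KO. The Zeb2 KO difference from WT was about the same without Zeb2 KO replicate 3, at 0.43. Without WT replicate 1, the highest WT array here, it was 0.56.

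**Figure D1:**
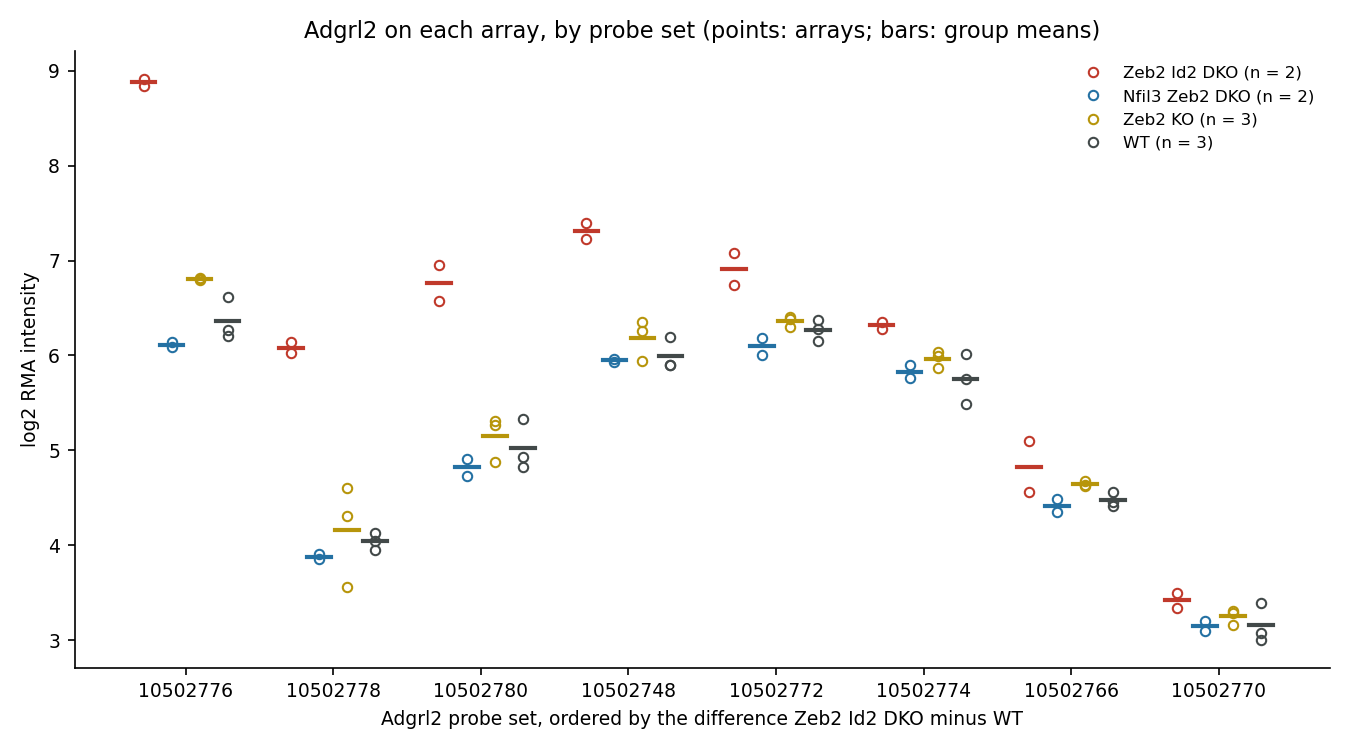
The 8 Adgrl2 probe sets on the horizontal axis and log2 RMA intensity on the vertical axis, with a point per array and a bar at each genotype's mean. Both Zeb2 Id2 DKO arrays stand above all other arrays in the left-hand probe sets, by 2.51 over WT in 10502776, and the gap closes to 0.26 in 10502770.

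The Adgrl2 probe sets shared the direction and differed in size. Between Zeb2 Id2 DKO and WT the log2 difference was 2.51 with 10502776, 2.04 with 10502778, 1.74 with 10502780 and 1.31 with 10502748. It was 0.64 with 10502772, 0.56 with 10502774, 0.35 with 10502766 and 0.26 with 10502770. So 4 of 8 probe sets differed by at least 2-fold, where 0.45% of all probe sets were at least 2-fold higher. The same count, 4 of 8, was found against Zeb2 KO (0.243% of all) and against Nfil3 Zeb2 DKO (0.514% of all). All Zeb2 Id2 DKO arrays lay above those of WT in 6 of 8 probe sets (15% of all), above those of Zeb2 KO in 7 of 8 (9.84% of all) and above those of Nfil3 Zeb2 DKO in 8 of 8 (22.8% of all). Because these probe sets chose the gene, nothing is read from these shares.

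Among the others, probe set 10502778 read 6.14 and 6.02 in Zeb2 Id2 DKO, 3.91 and 3.85 in Nfil3 Zeb2 DKO, 4.61, 4.31 and 3.56 in Zeb2 KO and 4.13, 3.95 and 4.05 in WT. Probe set 10502772 read 6.74 and 7.08 in Zeb2 Id2 DKO, 6.01 and 6.19 in Nfil3 Zeb2 DKO, 6.30, 6.38 and 6.41 in Zeb2 KO and 6.37, 6.15 and 6.28 in WT. In both, the Zeb2 Id2 DKO arrays were the highest of all. Probe set 10502770 read 3.34 and 3.50 in Zeb2 Id2 DKO and 3.39, 3.0 and 3.07 in WT, which overlapped. The sources used here do not say which part of the transcript each probe set reads. Probe sets 10502770, 10502766 and 10502778 averaged 3.24, 4.59 and 4.45 over all arrays, toward the low end of the scale. Probe set 10502780 averaged 5.37 over all arrays and 5.03 in WT, also in the lower part of the scale. The sizes of the differences of these probe sets are therefore uncertain.

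Averaged over its 8 probe sets, Adgrl2 stood at 6.37 and 6.26 in Zeb2 Id2 DKO, 5.02 and 5.04 in Nfil3 Zeb2 DKO, 5.38, 5.38 and 5.18 in Zeb2 KO and 5.32, 5.01 and 5.08 in WT. On this scale too both Zeb2 Id2 DKO arrays were above all others, and Zeb2 KO and WT overlapped. The difference between Zeb2 Id2 DKO and WT then came to 1.18, less than that of probe set 10502776. This mean includes the probe sets toward the low end of the scale.

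The other comparisons of Adgrl2 gave smaller differences. Between Nfil3 Zeb2 DKO and WT, 7 of 8 probe sets had a difference below 0 and 1 above, from -0.25 to 0.08. All 8 were lower in Nfil3 Zeb2 DKO than in Zeb2 KO by means, with log2 differences of -0.69 to -0.10, and in 3 of 8 the arrays did not overlap (10.2% of all probe sets lay lower without overlap there). All 8 had higher means in Zeb2 KO than in WT, by 0.09 to 0.44, and in 2 of 8 the arrays did not overlap (5.23% of all probe sets lay higher without overlap). In most probe sets these differences were within the spread of the arrays. Zeb2 KO replicate 3 was the lowest Zeb2 KO array in 10502748, 10502766, 10502778 and 10502780. Without it the difference of 10502778 between Zeb2 KO and WT was 0.41 in place of 0.12, and that of 10502780 was 0.26 in place of 0.12. Without Zeb2 KO replicate 1 that of 10502778 was -0.11, the other sign.

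Adgrl3, a latrophilin gene on chromosome 5 (81019085 to 81827825, GRCm38.p6), was lowest in Zeb2 Id2 DKO, where Adgrl2 was highest. Its single probe set read 5.31 and 5.33 in Zeb2 Id2 DKO, 6.57 and 6.85 in Nfil3 Zeb2 DKO, 6.56, 6.53 and 6.48 in Zeb2 KO and 7.90, 8.15 and 7.35 in WT. The WT arrays were the highest and varied most, both genotypes with intact Id2 but without Zeb2 lay between, and the Zeb2 Id2 DKO arrays were the lowest. The means were 5.32 ± 0.01 in Zeb2 Id2 DKO, 6.71 ± 0.20 in Nfil3 Zeb2 DKO, 6.52 ± 0.04 in Zeb2 KO and 7.80 ± 0.41 in WT (SD). Nfil3 Zeb2 DKO and Zeb2 KO differed by a log2 of 0.19, less than the SD of the Nfil3 Zeb2 DKO arrays.

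The log2 difference of Adgrl3 from WT was -2.48 in Zeb2 Id2 DKO (5.58-fold lower), -1.09 in Nfil3 Zeb2 DKO (2.12-fold lower) and -1.28 in Zeb2 KO (2.42-fold lower). These 3 comparisons share the WT arrays. Against Zeb2 KO, the Zeb2 Id2 DKO arrays were lower by a further step, with a log2 difference of -1.20 (2.30-fold lower). Leaving out Zeb2 KO replicate 3 gave -1.26 between Zeb2 KO and WT and -1.22 between Zeb2 Id2 DKO and Zeb2 KO. Differences of at least 2-fold downward were found in 0.367% of all probe sets between Zeb2 Id2 DKO and WT, in 0.0826% between Nfil3 Zeb2 DKO and WT and in 0.0688% between Zeb2 KO and WT. Adgrl3 was chosen by these same values, so nothing is read from these shares either.

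Set side by side, both genes had their largest difference from WT in Zeb2 Id2 DKO. Adgrl3 was lower in all 3 genotypes labelled as lacking Zeb2, whereas Adgrl2 was higher by more than 2-fold in Zeb2 Id2 DKO alone. In Zeb2 KO the log2 differences from WT were 0.44 for Adgrl2 probe set 10502776 and -1.28 for Adgrl3. In Nfil3 Zeb2 DKO they were -0.25 for this Adgrl2 probe set and -1.09 for Adgrl3. Averaged over its 8 probe sets, however, Adgrl2 in Nfil3 Zeb2 DKO (5.02 and 5.04) overlapped with WT (5.32, 5.01 and 5.08). A fall of Adgrl2 below WT there therefore rests on single probe sets.

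**Figure D2:**
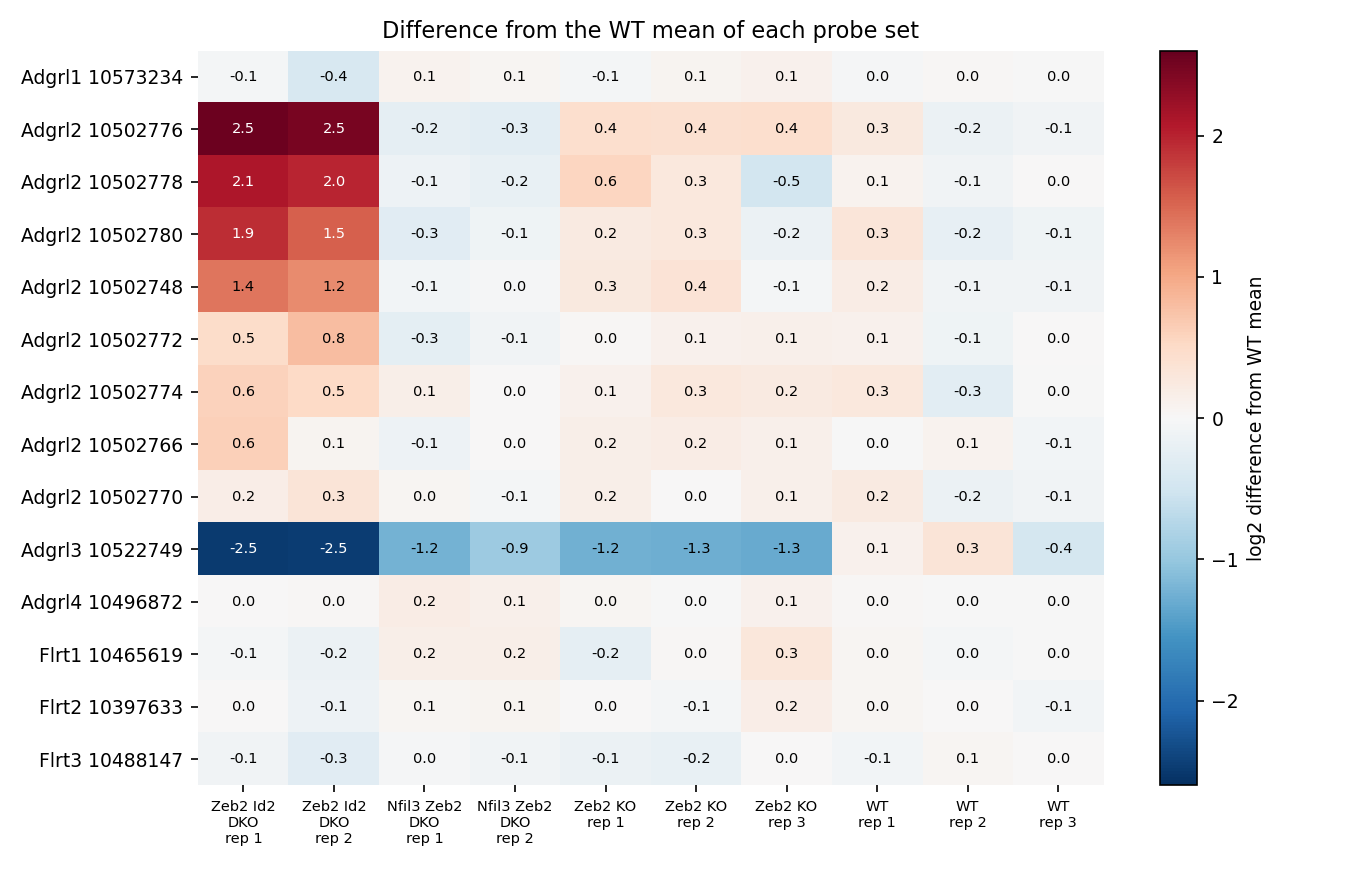
Each row is 1 of the 14 probe sets and each column 1 of the 10 arrays, and a cell gives the log2 difference from the WT mean of that probe set. Adgrl3 is below WT in all 7 mutant arrays, the upper Adgrl2 rows are above WT in both Zeb2 Id2 DKO arrays, and the other 5 genes stay near 0.

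Markers of other cells moved with genotype on the same arrays. Between Zeb2 Id2 DKO and WT, where 0.817% of all probe sets rose and 0.486% fell, 8 of 12 neutrophil markers rose and none fell, and their mean per array was 8.27 to 9.42 in Zeb2 Id2 DKO, 7.36 to 8.03 in Nfil3 Zeb2 DKO, 8.41 to 9.40 in Zeb2 KO and 6.76 to 7.06 in WT. Of 8 erythroid markers 3 rose (Ank1, Car2 and Hemgn) and none fell, with means of 8.03 to 8.21 in Zeb2 Id2 DKO, 6.23 to 7.10 in Nfil3 Zeb2 DKO, 7.40 to 7.56 in Zeb2 KO and 6.85 to 7.32 in WT.

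Of 10 measured markers of plasmacytoid dendritic cells, 4 rose (Siglech, Bst2, Cd300c and Upb1) and none fell between Zeb2 Id2 DKO and WT, and their mean was 8.06 to 8.18 in Zeb2 Id2 DKO, 7.58 to 7.60 in Nfil3 Zeb2 DKO, 7.39 to 7.50 in Zeb2 KO and 7.55 to 7.83 in WT. Of 9 T cell markers 2 fell (Cd3d and Cd3g) and none rose, with means of 6.05 to 6.08 in Zeb2 Id2 DKO, 6.56 to 6.77 in Nfil3 Zeb2 DKO, 6.16 to 6.37 in Zeb2 KO and 6.33 to 6.62 in WT. Of 11 red pulp macrophage markers 2 fell (Hpgd and Vcam1) and none rose, with means of 6.04 to 6.15 in Zeb2 Id2 DKO, 6.39 to 6.41 in Nfil3 Zeb2 DKO, 5.95 to 6.55 in Zeb2 KO and 6.25 to 6.56 in WT. Markers of stromal cells, cDC2 and B cells held 0 called genes between Zeb2 Id2 DKO and WT. This is close to the background, as 1.3% of all probe sets were called there. B cell means varied widely within 2 groups, at 5.99 to 7.28 in Zeb2 KO and 6.51 to 7.79 in WT. They were 6.48 to 6.60 in Zeb2 Id2 DKO and 6.28 to 6.42 in Nfil3 Zeb2 DKO. The part of any of these cells in the values of Adgrl2 and Adgrl3 was not tested.

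The 250 bases before an annotated start of each gene are shown because Id2 acts by keeping E proteins from the letters CANNTG (the E-box), of which CACCTG and CAGGTG are also the letters that ZEB proteins bind. Sequences are from RefSeq on GRCm38.p6, written along the gene's strand, and capitals mark CANNTG, searched on both strands, where it reads the same.
Adgrl2, chr3:148954636-148954885, minus strand: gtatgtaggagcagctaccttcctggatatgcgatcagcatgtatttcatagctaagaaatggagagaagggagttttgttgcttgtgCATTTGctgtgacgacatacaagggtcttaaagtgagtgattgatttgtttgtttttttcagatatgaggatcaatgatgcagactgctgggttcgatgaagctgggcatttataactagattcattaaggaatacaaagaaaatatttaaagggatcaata
Adgrl3, chr5:81020321-81020570, plus strand: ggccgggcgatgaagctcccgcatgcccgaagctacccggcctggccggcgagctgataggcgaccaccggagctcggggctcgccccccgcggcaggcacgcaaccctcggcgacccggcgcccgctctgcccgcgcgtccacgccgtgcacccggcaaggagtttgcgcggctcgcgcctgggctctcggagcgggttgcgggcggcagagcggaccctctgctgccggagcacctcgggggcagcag
The Adgrl2 window held 1 match, CATTTG, which began 162 bases before the start, and 37.6% of its bases were G or C. The Adgrl3 window held 0 matches and was 76.8% G or C. Of 2 further annotated Adgrl3 starts, the window of 1 held 1 match, CATCTG, and was 60.0% G or C. The other held 0 and was 66.0% G or C. Over 32841 windows of the same length, 66.2% held CANNTG, and 17.2% held CACCTG or CAGGTG, which neither gene's windows held. Windows matched 6 of the 7 genes, all but Flrt1. These matches describe letters near annotated starts only, and both genes extend beyond the starts shown. On the minus strand Adgrl2 begins at 148989096, upstream of its window, so the start shown lies inside the gene. Adgrl3 begins at 81019085, so its starts lie inside the gene too. The windows therefore do not compare the outermost starts of these genes.

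Adgrl1, known as a receptor of the spider toxin latrotoxin, read 7.02 and 6.66 in Zeb2 Id2 DKO, 7.18 and 7.14 in Nfil3 Zeb2 DKO, 7.03, 7.16 and 7.20 in Zeb2 KO and 7.06, 7.12 and 7.07 in WT. Both Zeb2 Id2 DKO arrays were the lowest, and replicate 2 made most of the gap. The log2 difference between Zeb2 Id2 DKO and WT was -0.24 (95% confidence interval -0.48 to -0.00), and Adgrl1 did not pass the test over all probe sets (limma, Benjamini-Hochberg adjusted p = 0.505). It was -0.28 against Zeb2 KO (limma adjusted p = 0.567) and -0.31 against Nfil3 Zeb2 DKO (limma adjusted p = 0.338).

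Adgrl4, the endothelial relative on chromosome 3, read 4.34 and 4.35 in Zeb2 Id2 DKO, 4.52 and 4.47 in Nfil3 Zeb2 DKO, 4.37, 4.32 and 4.45 in Zeb2 KO and 4.37, 4.31 and 4.31 in WT. All arrays lay between 4.31 and 4.52, toward the low end of the scale, so the size of any difference is uncertain. In Nfil3 Zeb2 DKO both arrays were the highest, by a log2 of 0.16 over WT (-0.01 to 0.33, limma adjusted p = 1.0). The 12 endothelial markers held 0 called genes in any of the 6 comparisons, where 0.00459% to 1.3% of all probe sets were called. With so few calls, 0 of 12 is close to the background. Their array means were 6.30 to 6.43 in Zeb2 Id2 DKO, 6.37 to 6.45 in Nfil3 Zeb2 DKO, 6.26 to 6.45 in Zeb2 KO and 6.41 to 6.52 in WT.

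The FLRT genes, ligands of the latrophilins, differed little. Flrt1 read 7.0 and 6.89 in Zeb2 Id2 DKO, 7.20 and 7.21 in Nfil3 Zeb2 DKO, 6.81, 7.08 and 7.34 in Zeb2 KO and 7.10, 7.0 and 7.04 in WT. The Zeb2 KO arrays spanned all the others. Flrt2 stayed between 5.02 and 5.33 on all arrays, and its groups overlapped in all comparisons but those of Nfil3 Zeb2 DKO with WT and of Zeb2 Id2 DKO with Nfil3 Zeb2 DKO.

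Flrt3 read 4.56 and 4.36 in Zeb2 Id2 DKO, 4.63 and 4.57 in Nfil3 Zeb2 DKO, 4.51, 4.46 and 4.67 in Zeb2 KO and 4.60, 4.72 and 4.67 in WT. Its Zeb2 Id2 DKO arrays lay just below all WT arrays, with a log2 difference of -0.20 (-0.41 to 0.02, limma adjusted p = 0.576). Over the 3 FLRT genes and 6 comparisons the log2 differences ran from -0.26 to 0.16, and their 95% confidence intervals stayed within -0.58 and 0.45. A change of 2-fold either way, a log2 of 1, lies outside all these intervals. These intervals concern array intensity. Flrt2 averaged 5.16 and Flrt3 4.58 over all arrays, toward the low end of the scale. The size of any change in their transcripts is therefore uncertain.

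**Figure D3:**
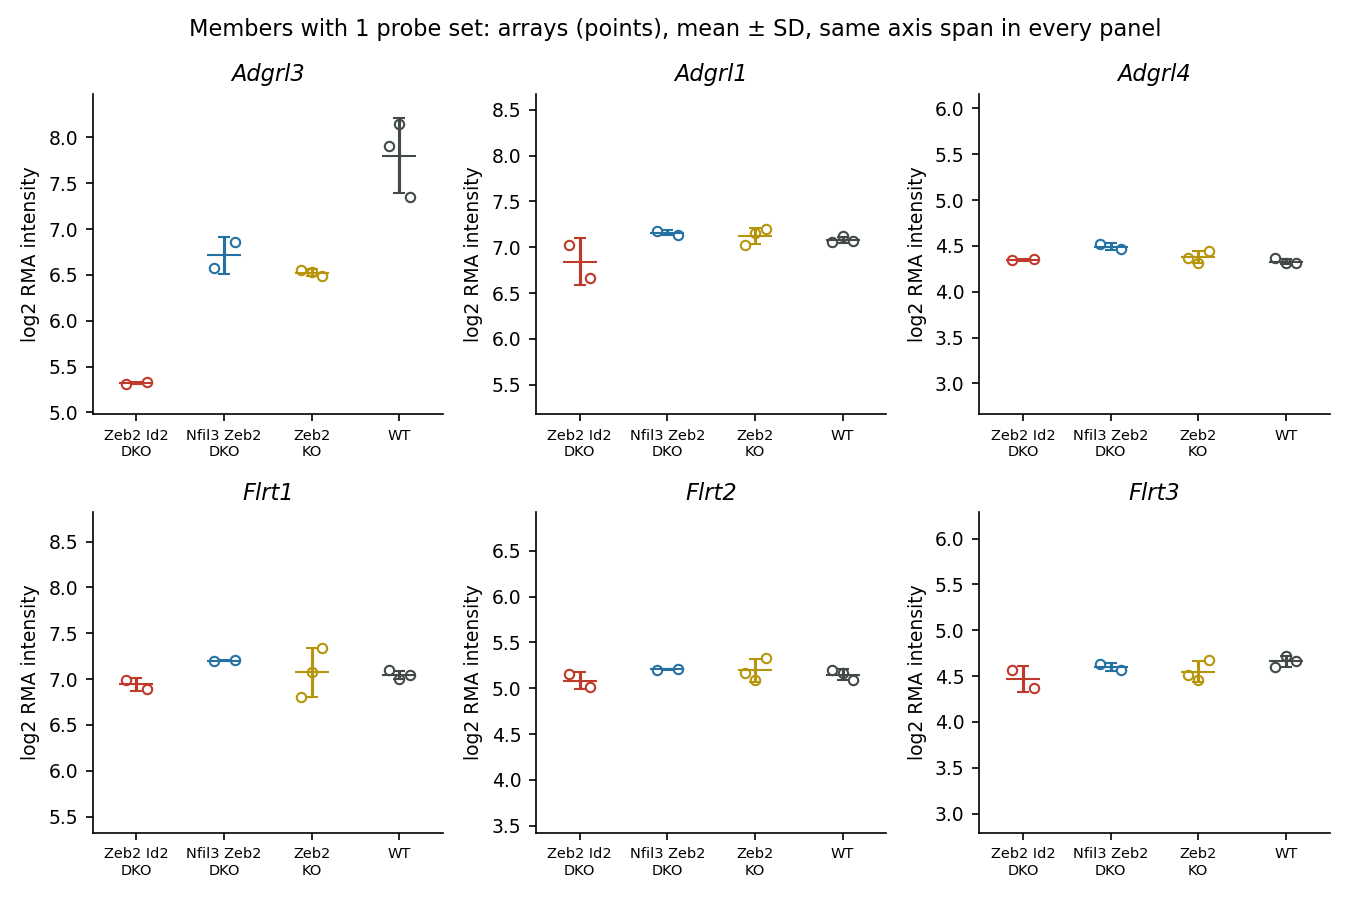
Log2 RMA intensity of the 6 genes with 1 probe set, by genotype, with a point per array and the mean ± SD, and the same span on every vertical axis. Adgrl3 averages 5.32 in Zeb2 Id2 DKO and 7.80 in WT, and the largest difference of any other gene shown is 0.31.

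None of the 5 tested genes passed the limma test in any of the 6 comparisons. Of their 30 differences 3 had an unadjusted p under 0.05, all of Adgrl1 in Zeb2 Id2 DKO, and the smallest adjusted p of the limma test was 0.338. Such unadjusted p-values were found in 9.83% of all probe sets between Zeb2 Id2 DKO and WT, 7.14% against Zeb2 KO and 11.3% against Nfil3 Zeb2 DKO, and in 4.03% between Nfil3 Zeb2 DKO and WT, 7.12% between Zeb2 KO and WT and 8.33% between Nfil3 Zeb2 DKO and Zeb2 KO. As background, the test called 1.3% of all probe sets between Zeb2 Id2 DKO and WT, 0.464% between Zeb2 Id2 DKO and Zeb2 KO and 0.702% between Zeb2 Id2 DKO and Nfil3 Zeb2 DKO. It called 0.0138% between Zeb2 KO and WT, and 0.00459% each between Nfil3 Zeb2 DKO and WT and between Nfil3 Zeb2 DKO and Zeb2 KO. With so few calls among all probe sets, 0 of 5 is close to the background in every comparison.

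Other partners of latrophilins and FLRT proteins were measured for 16 of 17 listed genes. Between Zeb2 Id2 DKO and WT 1 of 16 rose and none fell (over all probe sets 0.817% rose and 0.486% fell), with a median log2 difference of -0.06 against -0.01 over all genes. The teneurins Tenm1 to Tenm4, ligands of latrophilins, and the FLRT receptors Unc5a to Unc5d lay between -0.18 and 0.11 and did not pass. The riser was Fgfr1, a fibroblast growth factor receptor that FLRT proteins bind. It read 10.19 and 9.41 in Zeb2 Id2 DKO, 7.43 and 7.77 in Nfil3 Zeb2 DKO, 8.84, 8.06 and 8.56 in Zeb2 KO and 8.56, 7.83 and 7.89 in WT.

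Both Zeb2 Id2 DKO arrays were the highest for Fgfr1. It rose 3.26-fold against WT (log2 1.71, 1.05 to 2.36, limma adjusted p = 0.0212) and 4.60-fold against Nfil3 Zeb2 DKO (log2 2.20, limma adjusted p = 0.0133). Against Zeb2 KO the log2 difference was 1.32 and did not pass (limma adjusted p = 0.127). Without Zeb2 Id2 DKO replicate 1 the adjusted p of limma was 0.248 against WT and 0.126 against Nfil3 Zeb2 DKO. The call against WT was also lost without WT replicate 2 (0.0881) or WT replicate 3 (0.0925), and that against Nfil3 Zeb2 DKO without Nfil3 Zeb2 DKO replicate 1 (0.173) or replicate 2 (0.0601).

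Other adhesion G protein-coupled receptors were measured for 24 of 26 genes, and 2 rose and none fell between Zeb2 Id2 DKO and WT, with a median of -0.03. Over all probe sets 0.817% rose and 0.486% fell there. Between Zeb2 Id2 DKO and Nfil3 Zeb2 DKO 1 of 24 fell and none rose, where 0.702% of all probe sets were called. Celsr1, a cadherin-type receptor of planar cell polarity, rose 1.39-fold (7.25 ± 0.01 in Zeb2 Id2 DKO, 6.77 ± 0.09 in WT, limma adjusted p = 0.0255). Adgrg3 rose 1.51-fold (6.64 ± 0.16 in Zeb2 Id2 DKO, 6.04 ± 0.16 in WT, limma adjusted p = 0.0437). Without Zeb2 Id2 DKO replicate 2 the limma adjusted p was 0.211 for Celsr1 and 0.420 for Adgrg3. Both calls were also lost without Zeb2 Id2 DKO replicate 1 or any single WT or Nfil3 Zeb2 DKO array, and that of Adgrg3 without Zeb2 KO replicate 1 or 2. Adgrf5, known from lung surfactant balance, had the largest difference of the list but did not pass. It read 5.17 and 5.36 in Zeb2 Id2 DKO, 6.14 and 6.73 in Nfil3 Zeb2 DKO, 5.58, 5.31 and 6.10 in Zeb2 KO and 6.23, 6.67 and 6.11 in WT. Both Zeb2 Id2 DKO arrays lay below those of WT, with a log2 difference of -1.07 (limma adjusted p = 0.0759), and of -1.17 against Nfil3 Zeb2 DKO (limma adjusted p = 0.0881). Adgrg6, known from Schwann cell myelination, fell 1.81-fold in Zeb2 Id2 DKO against Nfil3 Zeb2 DKO (6.21 ± 0.10 in Zeb2 Id2 DKO, 7.07 ± 0.20 in Nfil3 Zeb2 DKO, limma adjusted p = 0.0130), and that call was lost without Nfil3 Zeb2 DKO replicate 1 (0.170) or Zeb2 Id2 DKO replicate 1 (0.136) or 2 (0.0735).

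None of the 12 measured G protein alpha subunits, which carry the receptors' signals into the cell, passed the limma test in any comparison, with 3 of 72 unadjusted p-values under 0.05. Over all probe sets such p-values made up 4.03% to 11.3%, depending on the comparison. Gna12 had a log2 difference of 0.34 between Zeb2 Id2 DKO and WT (limma adjusted p = 0.305). Of 13 other leucine-rich repeat genes that organise synapses, 1 rose and none fell between Zeb2 Id2 DKO and WT, with a median of -0.04 (over all probe sets 0.817% rose and 0.486% fell). This was Lrrc4c, a netrin-G ligand, at 6.13 and 5.68 in Zeb2 Id2 DKO, 3.76 and 3.56 in Nfil3 Zeb2 DKO, 3.31, 3.52 and 3.53 in Zeb2 KO and 3.54, 3.53 and 3.51 in WT. Its Zeb2 Id2 DKO arrays stood above all others, and it rose against WT (limma adjusted p = 2.69e-05). Its size is uncertain because the other arrays read near the low end of the scale: the log2 difference was 2.38, and 1.47 after an offset of 16 was added to the intensities.

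**Figure D4:**
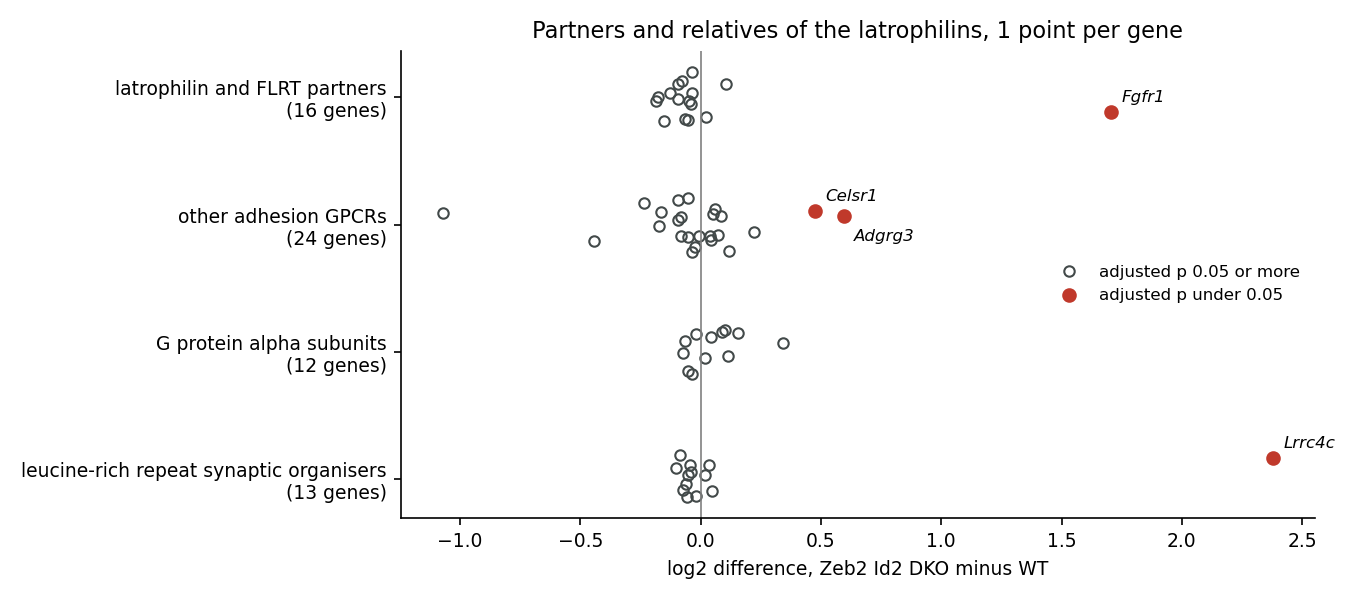
The horizontal axis gives the log2 difference between Zeb2 Id2 DKO and WT for each measured gene of the 4 lists of partners and relatives, and filled points passed the limma test. Fgfr1 at 1.71 and Lrrc4c at 2.38 lie far to the right and Adgrf5 at -1.07, which did not pass, far to the left of lists whose medians lie between -0.06 and 0.03.

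Genes whose values ran closest to those of Adgrl2 and Adgrl3 were taken by the root mean square difference over the 10 arrays, after each gene was centred on its own WT mean. For Adgrl2 probe set 10502776 they were Ifit3 (0.29 on the log2 scale), Slfn1 (0.34), Ank1 (0.35), Lrrc4c (0.36) and Ifit2 (0.37). Ifit2 and Ifit3 are interferon-induced, and Ank1, one of the erythroid markers above, encodes the ankyrin of red cell membranes. Their log2 differences between Zeb2 Id2 DKO and WT were 1.84 to 2.38, and those between Zeb2 KO and WT -0.07 to 0.36. With the sign turned, the nearest genes were Apol7c (0.39), Cpne8 (0.41), Klra5 (0.52), Icos (0.53) and Adam22 (0.54).

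The genes nearest to Adgrl3 were Adam22 (0.48), Xlr (0.54), Hpgd (0.57), Zfyve9 (0.58) and Klra5 (0.62). Their log2 differences between Zeb2 Id2 DKO and WT were -2.27 to -1.52, and Hpgd is one of the red pulp macrophage markers above. Like Adgrl3 each was lower in all 3 mutant genotypes by means, from -1.77 for Xlr to -0.50 for Klra5 in Zeb2 KO. Klra5 and Adam22, a catalytically inactive member of the ADAM family that works at synapses, were also among the genes opposite to Adgrl2. With the sign turned, the genes nearest to Adgrl3 were Cd6 (0.51), Prtn3 (0.53), Mpo (0.56), Tdgf1 (0.62) and Lgals9 (0.62). Prtn3 and Mpo encode enzymes of neutrophil granules and are among the neutrophil markers above. These likenesses describe 10 arrays with shared groups and were not tested.

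**Figure D5:**
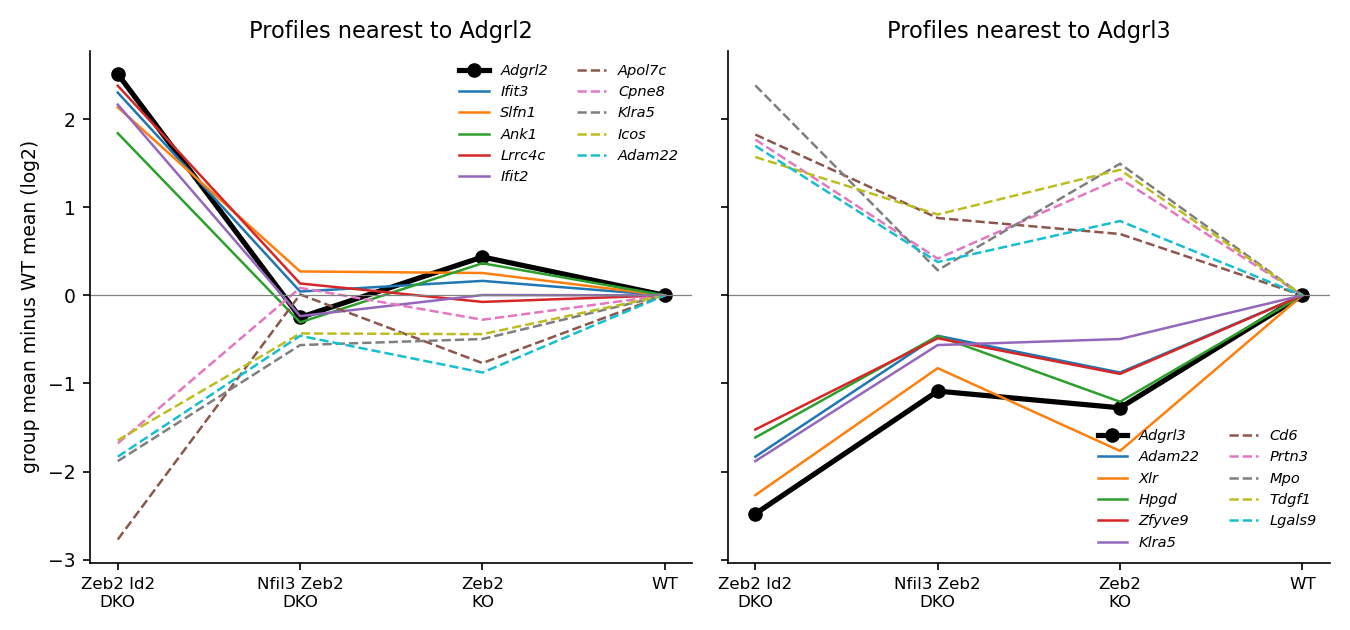
Group means minus the WT mean on the log2 scale for Adgrl2 (left) and Adgrl3 (right), in black, with the 5 nearest genes as solid lines and the 5 nearest with the sign turned as broken lines. Genes near Adgrl2 leave 0 mainly in Zeb2 Id2 DKO, as Ifit3 does at 2.30, and genes near Adgrl3 are below 0 in all 3 mutant genotypes.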

How the data were processed

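Total RNA of sorted splenic cDC1s was measured on 10 arrays in 4 groups. The deposited values are linear intensities that the authors had normalized with RMA in Affymetrix Expression Console, per the submitters' processing notes; log2 was taken here. Probe sets were named through GEO's platform table; 21698 of 21789 single-gene probe sets matched the RefSeq gene table (GRCm38.p6). Group means were fitted over the 10 arrays with limma 3.58.1 in R 4.3.3 (6 residual degrees of freedom, prior 4.28), and each of 6 comparisons was adjusted over the 21789 probe sets (Benjamini-Hochberg, threshold 0.05). Lists used each gene's highest-mean probe set. Members and lists were chosen with earlier results of these data known. Named genes were all members, list members that passed or had the smallest p, and the 5 nearest profiles in each direction, without predicted genes, receptors of smell and small RNAs. The number of arrays limits precision: the median 95% confidence interval reached 0.22 to 0.26 to either side. The fit was tested on simulated data.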

Additional observations from a re-analysis of the deposited data

How the results depend on the processing

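With 8 alternatives to the fit, 10 left-out arrays and restriction to the 2 genotypes compared, the 5 tested genes did not pass in any of 552 values (smallest adjusted p 0.108). Adgrl2 probe set 10502776 kept its sign between Zeb2 Id2 DKO and WT, with a log2 difference of 2.30 after an offset of 16, 1.18 as the mean of 8 probe sets, and 2.43 to 2.64 with single arrays left out. Adgrl3 kept it at -2.10 with the offset and -2.70 to -2.31 with arrays left out. Of 948 alternative values of Adgrl2 and Adgrl3, 8 had the other sign, none of them of Adgrl3. They belonged to 6 differences of Adgrl2 of at most 0.18, 4 between Nfil3 Zeb2 DKO and WT (probe sets 10502748, 10502766, 10502770 and 10502774), 1 between Zeb2 KO and WT (10502778) and 1 between Zeb2 Id2 DKO and Zeb2 KO. The last, of 10502766, ranged from -0.089 without Zeb2 Id2 DKO replicate 1 to 0.451 without replicate 2.

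Counts of called probe sets moved. Between Zeb2 Id2 DKO and WT the count was 284, against 1092 with array weights, 181 with the replicate number as a block and 560 with the arrays of both genotypes alone. Between Nfil3 Zeb2 DKO and WT it was 1, against 18 with weights and 2 with both genotypes alone. Between Zeb2 KO and WT it was 3, against 5 over all probe sets or with a variance trend, 0 without dim probe sets or with the offset, 41 with weights, 6 with the block and 1 with both genotypes alone. Between Zeb2 Id2 DKO and Zeb2 KO it was 101, against 253 with weights and 21 alone. Between Nfil3 Zeb2 DKO and Zeb2 KO it was 1, against 2 over all probe sets or with weights and 0 alone. Between Zeb2 Id2 DKO and Nfil3 Zeb2 DKO it was 153, against 1178 with weights and 862 alone. With single arrays left out, the same 6 counts ranged over 67 to 766, 1 to 8, 0 to 166, 22 to 150, 1 to 96 and 24 to 708, each highest without Zeb2 KO replicate 3. The cause was not tested. Deviations from the group means correlated at -0.31 to 0.17 between same-numbered arrays and at -0.23 to 0.30 between other arrays. In groups of 2 arrays the deviations mirror each other, so these values say little about pairing. The block kept 168 of the 284 calls.

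For the lists, alternatives were chosen after seeing the data. Over all probe sets the main fit called 0.00459% to 1.3%, depending on the comparison. With weights 1092 of 21789 were called between Zeb2 Id2 DKO and WT, against 284 in the main fit. The list counts are therefore given as a description only. Calls over all 6 comparisons were 3 for adhesion receptors (8 with weights, 1 with the block, 5 with both genotypes alone, 0 to 7 with arrays left out), 2 for partners (0 to 2), 0 for G protein subunits (2 with weights, 0 to 2) and 3 for leucine-rich repeat genes (0 without dim probe sets, which leaves out Lrrc4c, and 3 with each array left out).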
